A study of Mus musculus with 5 samples.

Results

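Vascular smooth muscle cells of the mouse dentate gyrus were taken from 2 droplet libraries of dissociated cells by a rule on their RNA. A barcode counted as one when at least 3 of the 6 genes Myh11, Acta2, Tagln, Cnn1, Mustn1 and Des had a UMI (a unique molecular identifier, which stands for 1 captured RNA molecule). Cldn5, Tmem119, Folr1 and Mog, genes of endothelium, microglia, choroid plexus and oligodendrocytes, could hold at most 1 UMI together, and at most 1 of the pericyte genes Kcnj8, Atp13a5 and Higd1b could be detected. Barcodes needed at least 500 UMIs and 300 genes. The rule found 135 cells among 59960 barcodes of that depth, in a series of 95918 barcodes.

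CFC-14d held dentate gyrus cells of wild-type (WT) mice 14 days after contextual fear conditioning (CFC), in which a place is paired with a shock. Random-14d held those of WT mice 14 days after foot shocks given at random. Each group had 10 mice and 1 library, so no difference between the groups has a replicate, and no p-value is given. The other 3 libraries held nuclei: WT-naive (untrained), WT-CFC, and KO-CFC, from trained mice whose title names a Csf2rb2 knockout.

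Smooth muscle cells form the contractile coat of arteries and arterioles and a thinner one on veins, and they set vessel calibre. Calcium that enters through voltage-gated channels or leaves the sarcoplasmic reticulum activates myosin light chain kinase, and nitric oxide relaxes the cell through guanylyl cyclase and the cGMP-dependent kinase. Pericytes are the mural cells of capillaries and use part of the same machinery.

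Many contractile genes carry a CArG box near their start, the sequence that serum response factor binds, often together with myocardin. Windows of 250 bases before to 50 after the start were taken from RefSeq (GRCm38.p6), which matched 4 of the 6 rule genes and 14 of 20 further smooth muscle identity genes. An exact CArG box, searched on both strands, stood in 2 of 14 windows of identity genes (Myl9 and Rergl). A further set held the 10 genes outside the rule whose level stood highest over other cell types, named below, of which 9 were matched. Pln, Tpm2, Lmod1 and Sncg are in both sets. An exact box stood in 2 of the 11 windows of the 9 genes (Fbxl22 and Myom1). It stood in 0 of 4 windows of rule genes, 0 of 8 of pericyte markers and 1.63% of all 32851 windows. With 1 base off the pattern allowed, 21.1% of all windows held a box, as did 5 of 14 of identity genes, 5 of 11 of those 9 genes, 3 of 8 of pericyte markers and, of the rule genes, Acta2. The 250 bases before the start are shown for 3 genes with an exact box and for Acta2, 5′ to 3′ on the gene's strand, with the boxes in capitals.
Myl9, chr2:156775214-156775463 (plus strand): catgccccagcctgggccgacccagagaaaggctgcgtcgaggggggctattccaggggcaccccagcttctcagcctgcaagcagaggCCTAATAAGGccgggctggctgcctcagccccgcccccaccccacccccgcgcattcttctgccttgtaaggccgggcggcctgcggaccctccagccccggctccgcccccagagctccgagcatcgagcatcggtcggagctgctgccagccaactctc
Fbxl22, chr9:66514594-66514843 (minus strand): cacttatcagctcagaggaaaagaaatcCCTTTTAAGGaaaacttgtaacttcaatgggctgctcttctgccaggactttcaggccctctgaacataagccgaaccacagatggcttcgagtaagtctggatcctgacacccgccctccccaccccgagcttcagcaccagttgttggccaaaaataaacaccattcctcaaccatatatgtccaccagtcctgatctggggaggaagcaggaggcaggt
Myom1, chr17:71019307-71019556 (plus strand): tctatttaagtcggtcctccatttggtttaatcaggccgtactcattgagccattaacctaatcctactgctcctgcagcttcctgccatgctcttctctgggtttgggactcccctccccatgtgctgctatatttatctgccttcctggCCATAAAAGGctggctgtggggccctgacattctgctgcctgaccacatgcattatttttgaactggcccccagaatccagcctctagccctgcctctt
Acta2, chr19:34255374-34255623 (minus strand): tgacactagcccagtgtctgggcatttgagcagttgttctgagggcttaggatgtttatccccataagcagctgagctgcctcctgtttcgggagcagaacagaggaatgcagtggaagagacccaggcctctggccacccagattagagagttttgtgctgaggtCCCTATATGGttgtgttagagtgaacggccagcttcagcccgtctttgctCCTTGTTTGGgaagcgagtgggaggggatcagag
The box began 161 bases before the start in Myl9, 222 in Fbxl22 and 99 in Myom1. The boxes of Acta2, each 1 base off, began 84 and 34 bases before it. A match describes these letters and is not a bound site.

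Smooth muscle cells were rare in both libraries. CFC-14d gave 83 of 31150 barcodes, a share of 0.266% (95% exact Clopper-Pearson interval 0.212 to 0.330). Random-14d gave 52 of 28810, a share of 0.180% (0.135 to 0.237). The intervals overlapped, which does not settle whether counting error covers the difference, since no interval of the difference itself was computed. Like all intervals here they cover counting error only, and dissociation can also set such shares. Among nuclei the rule found 0 of 10966 in WT-naive and 0 of 13209 in WT-CFC, which allow shares of up to 0.0274% and 0.0227% (3 counts of the total), and 1 of 8393 in KO-CFC.

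The median smooth muscle cell held 3670 and 2710 UMIs in CFC-14d and Random-14d, against 2050 and 2076 over all barcodes, and the cells together held 309808 and 151100 UMIs. The libraries shared 282 barcode sequences, 0 of them between smooth muscle cells. The haemoglobin genes made up 5.34% and 10.7% of the whole libraries' UMIs and 1.22% and 10.1% of the UMIs in smooth muscle cells. The median cell had 0.354% and 0.651%, while 3 CFC-14d cells had 7.55%, 13.1% and 50.2% and 4 Random-14d cells 5.03%, 40.4%, 66.1% and 79%.

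The cells were chosen by the UMIs of the rule genes in these same libraries, so the values of those genes are a description. Acta2, the smooth muscle actin, had 22550 CPM (UMIs of the gene per 1000000 UMIs of the summed cells) in CFC-14d (95% exact Poisson interval 22020 to 23080) and 16550 CPM in Random-14d (15900 to 17210). In each pair of values below, CFC-14d comes first. Tagln, an actin-binding protein, had 12150 and 8809 CPM, and Myh11, the smooth muscle myosin heavy chain, 2505 and 2270 CPM. Mustn1 had 1178 and 1224 CPM, the intermediate filament desmin (Des) 465 and 463 CPM and calponin (Cnn1) 445 and 357 CPM. All 6 genes were detected in 31 cells in CFC-14d and in 15 in Random-14d.

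Cells at the edge of the rule held little of this RNA. In CFC-14d the 15 cells with exactly 3 of the genes had 2941 CPM of Acta2, and the 58 barcodes just outside, with 2, had 1206 CPM. In Random-14d the 13 cells with 3 had 2490 CPM and the 30 barcodes with 2 had 715 CPM. Acta2 is one of the counted genes, so part of this fall is built into the rule. Myl9, a myosin light chain outside the rule, had 1207 and 1412 CPM in cells with 3 of the genes. It had 728 and 948 CPM with 2 and 11034 and 10699 CPM with 6. Median depth was also lower, at 1932 and 1654 UMIs with 3 against 4174 and 3646 with 6. Of 161 and 90 barcodes with at least 3 of the genes, 64 and 26 were left out for over 1 UMI of the exclusion genes, most often Folr1 in CFC-14d (36 barcodes) and Cldn5 in Random-14d (13).

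The label was checked on genes the rule did not use. With each cell thinned to 1000 UMIs, which left out 3 and 6 smooth muscle cells, Myl9, a myosin light chain, was seen in 90% and 91.3% of cells, the tropomyosin Tpm2 in 88.8% and 89.1% and the myosin kinase Mylk in 66.2% and 63%. Microglia showed Tpm2 in 0.961% and 0.744% and pericytes in 11% and 13.8%. Unthinned, smooth muscle cells showed Tpm2 in 92.8% and 90.4%. Thinned pericytes showed Myl9 in 66.35% and 68.04% and Mylk in 20.24% and 20%, so Myl9 was common in both types. Among the cells themselves, the 6 rule genes took 0.0769% to 8.08% of a cell's UMIs in CFC-14d and 0.0876% to 6.39% in Random-14d. Under 1% were 22 and 10 cells. The gate of another cell type was also passed by 21 and 12 cells, most often that of microglia (15 and 7). Those cells held 20660 and 22220 CPM of the 6 genes, and the remaining cells 46800 and 32280 CPM.

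**Figure D1:**
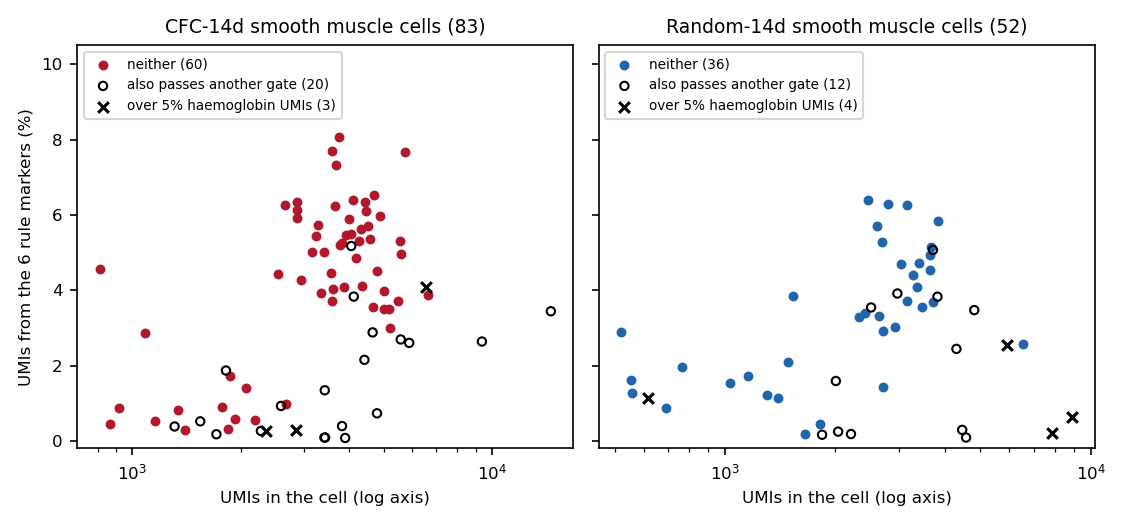
Share of UMIs from the 6 rule genes (vertical axis, percent) against UMIs in the cell (horizontal log axis), 1 point per smooth muscle cell of CFC-14d (left) and Random-14d (right). Open circles also pass another cell type's gate and crosses hold over 5% haemoglobin UMIs; the shares spread from near 0 to 8.08% in CFC-14d and 6.39% in Random-14d, with 22 and 10 cells under 1%.

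Levels of genes outside the rule were set beside those in 7 other gated types: pericytes, endothelium, fibroblasts, microglia, choroid plexus epithelium, astrocytes and oligodendrocytes. Of 670 genes with at least 100 counts over both libraries' smooth muscle cells, 81 had at least 2-fold the CPM of each type, 75 of them outside the rule. The minimum was set on smooth muscle counts alone, so genes low here and high elsewhere could not enter. These numbers are therefore a description. Ranked by the smallest log2 ratio over the 7 types with both libraries summed, a measure of how far a gene's level stood over that of the nearest type, the 10 highest outside the rule were Pln, Fbxl22, Pdlim3, Tpm2, Kcnab1, Lmod1, Nexn, Sncg, Myom1 and Ntn4. Pln (phospholamban), which restrains the sarcoplasmic calcium pump, had 1304 and 1516 CPM and a smallest log2 ratio of 8.59. Fbxl22, an F-box protein of muscle, had 462 and 304 CPM and 7.59, and Pdlim3, a LIM protein of actin filaments, 442 and 364 CPM and 7.08. The tenth, Ntn4 (netrin 4), had 404 and 384 CPM and 4.38.

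Detection of these genes was compared at the same depth of 1000 UMIs. Pln was seen in 57.5% and 60.9% of smooth muscle cells and 0.0983% and 0.0717% of microglia, and unthinned in 72.3% and 73.1% of smooth muscle cells. Lmod1 (leiomodin), which nucleates actin filaments, was seen in 48.8% and 47.8% and in 0.208% and 0.0896% of microglia. Microglia had median depths of 2275 and 2060 UMIs.

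Most contractile genes named here were higher than in pericytes in both libraries. Myl9, the regulatory light chain of smooth muscle myosin, had 8751 and 7247 CPM against 1254 and 1251 CPM in pericytes. The tropomyosin Tpm2 had 6672 and 5963 CPM against 135 and 139 CPM in pericytes, and Mylk, the kinase that phosphorylates Myl9, 1453 and 1337 against 215 and 201 CPM. Lmod1 had 775 and 893 against 22.5 and 20.0 CPM. Cald1 (caldesmon), which restrains the actin and myosin interaction, was close to its pericyte level, with 2566 and 2230 against 2725 and 2387 CPM, and the integrin Itga1 was lower, with 271 and 192 against 747 and 699 CPM.

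Of the regulators, Myocd (myocardin), the coactivator of the contractile genes, had 46 and 21 counts and, like each gene below with under 100 counts in all, was chosen after its values were seen. Its level was 148 and 139 CPM. Pericytes had 0 counts in CFC-14d and 3.0 CPM in Random-14d. The CFC-14d level was 72.7-fold a floor of 3 counts in the summed pericytes, leaving aside the counting error of the 46 counts. Srf, the factor with which it acts, had 4 and 2 counts in smooth muscle cells. Mef2c, a transcription factor of muscle and other lineages, had 362 and 457 CPM against 342 and 326 CPM in pericytes.

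Genes of calcium and potassium handling were split. Atp2a2, the sarcoplasmic calcium pump that Pln restrains, had 407 and 437 CPM against 128 and 107 CPM in pericytes. Cacna1c, the pore of the L-type calcium channel, had 197 and 285 against 287 and 306 CPM. The calcium release channel Ryr2 (27 and 13 counts) had 87.2 and 86 against 0.681 and 0 CPM. The CFC-14d value in pericytes was 1 count, a log2 ratio of 6.44 (95% counting interval 4.40 to 12.4), and 0 makes the Random-14d level at least 57.3-fold higher. The calcium-activated potassium channel Kcnma1 (29 and 15 counts) had 93.6 and 99.3 against 5.45 and 5.01 CPM and its beta subunit Kcnmb1 129 and 112 against 41.5 and 38.1 CPM. Abcc9, the regulatory subunit of the ATP-sensitive potassium channel, ran the other way, with 6 and 0 counts in smooth muscle and 655 and 622 CPM in pericytes. In Random-14d the upper limit of its 95% counting interval was a log2 ratio of -4.67, smooth muscle over pericytes.

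Of 43 listed receptors for vasoactive ligands, 14 (32.6%) had 0 counts in CFC-14d and 22 (51.2%) in Random-14d, against 82.4% and 85.1% of all 78028 symbols. Ramp1, a subunit of the receptor for the vasodilator CGRP and the only one past 100 counts, had 290 and 291 CPM against 44.9 and 44.6 CPM in pericytes. Npy1r, a receptor for the vasoconstrictor neuropeptide Y, had 178 and 185 against 85.1 and 84.6 CPM. Ednra, the endothelin A receptor, had 129 and 179 against 233 and 206 CPM, and P2ry14, a receptor for UDP-sugars, 67.8 and 86 against 610 and 526 CPM. S1pr3, a receptor for sphingosine 1-phosphate, had 83.9 and 86 against 261 and 237 CPM, and Tbxa2r, the thromboxane receptor, 48.4 and 19.9 against 225 and 244 CPM. Adora2a, an adenosine receptor, had 2 and 0 counts against 93.2 and 80.6 CPM. Of these 7, the receptors with at least 100 counts over both types in each library, Ramp1 and Npy1r were past 1.5-fold higher in both libraries and 4 were past it lower (P2ry14, S1pr3, Tbxa2r and Adora2a), with median log2 ratios of -1.61 and -1.41. Pericyte counts alone can meet that minimum. The subunits of the IL-3 receptor were at or under the floor of 3 counts: Il3ra had 1 and 0 counts, Csf2rb 0 and 2 and Csf2rb2 0 and 1.

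Nitric oxide and cGMP signalling was shared with pericytes in part. Gucy1a1 and Gucy1b1 form soluble guanylyl cyclase: Gucy1a1 had 410 and 476 CPM against 536 and 516 CPM in pericytes, and Gucy1b1 258 and 291 against 827 and 775 CPM. The cGMP-dependent kinase Prkg1 had 684 and 728 against 710 and 717 CPM, and its substrate Irag1, through which it restrains calcium release, 339 and 344 against 79 and 90.2 CPM. The phosphodiesterase Pde3a had 345 and 357 against 100 and 79.6 CPM. Irag1 and Pde3a were the higher in smooth muscle and Gucy1b1 in pericytes, while Prkg1 was close in both.

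Genes of other lists, here and in the comparison with pericytes below, were named after their values were seen. Ppp1r12b, a subunit of myosin phosphatase, had 278 and 371 CPM against 40.2 and 40.1 CPM in pericytes. Ltbp1, which holds TGF-beta in latent form in the matrix, had 262 and 205 against 8.17 and 6.01 CPM, and elastin (Eln), the protein of elastic laminae, 123 and 99.3 against 2.72 and 2.50 CPM. The growth factor Fgf1 had 207 and 126 against 9.53 and 8.01 CPM. These 4 were higher in smooth muscle in both libraries.

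**Figure D2:**
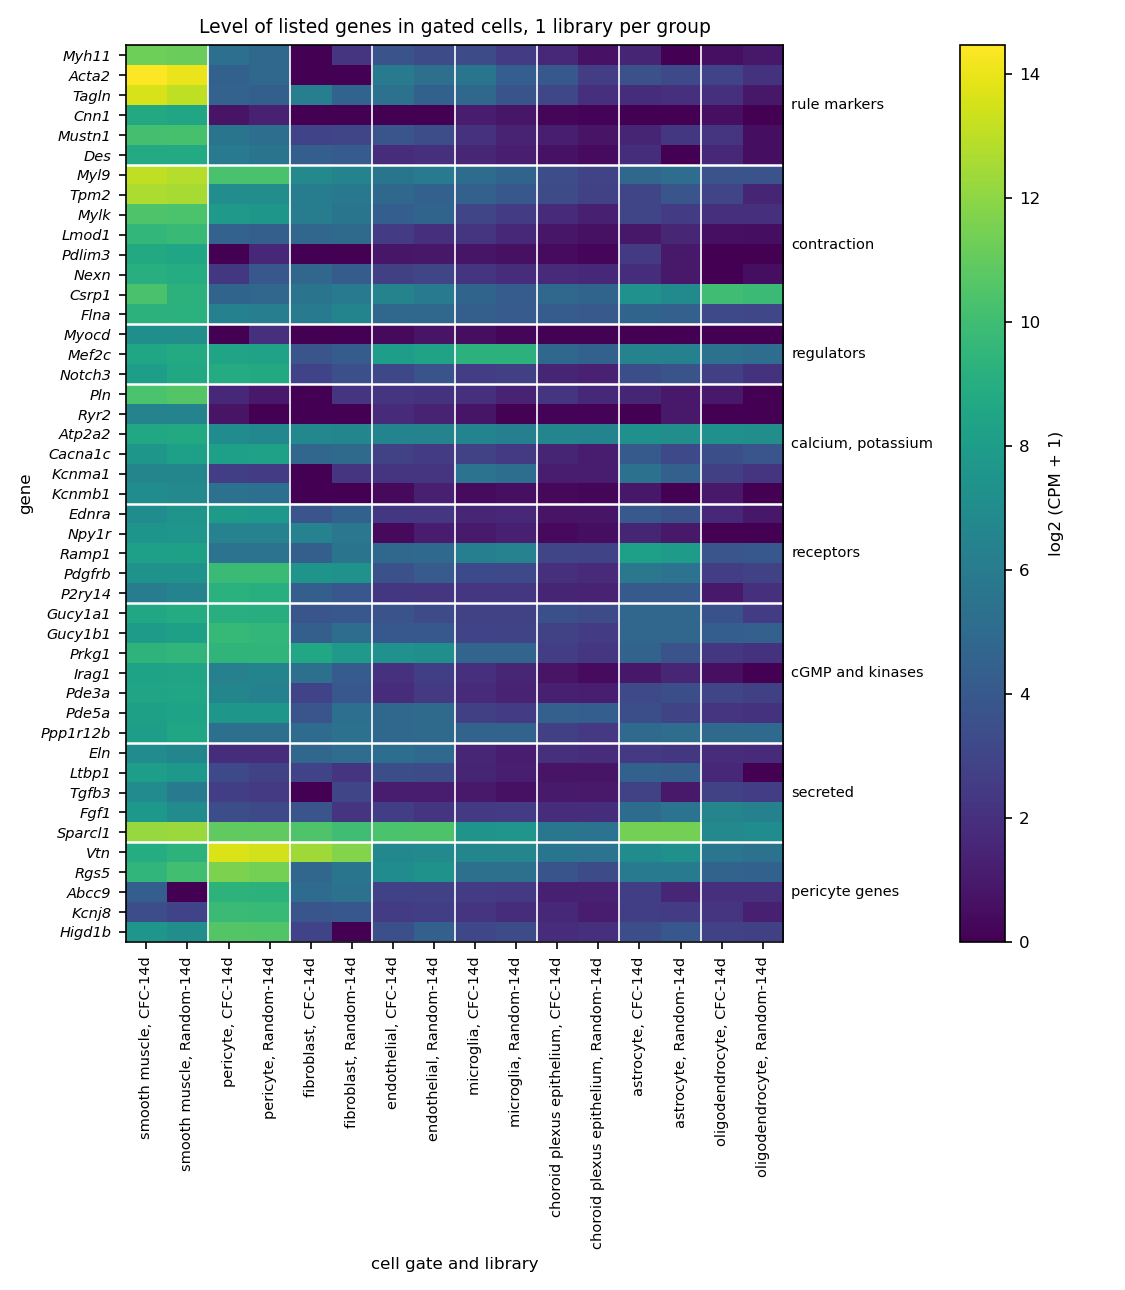
Level of listed genes (rows, by role) as log2 of CPM plus 1 (colour), in smooth muscle cells and 7 other gated types (columns, 1 for each of CFC-14d and Random-14d). The smooth muscle columns are brightest for the rule and contraction genes, and Myocd, at 148 and 139 CPM there, is at 0 and 3.0 CPM in pericytes.

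Over all genes, smooth muscle cells were set beside 2146 pericytes, whose genes the rule excluded, so that this too is a description. Of 3079 genes with at least 100 counts over both types in each library, 264 (8.57%) were at least 1.5-fold higher in smooth muscle in both libraries and 560 (18.2%) lower, with median log2 ratios of -0.13 and -0.14. Pericytes were more numerous, so a gene could reach that minimum through pericyte counts alone. Genes high in smooth muscle but with few counts, such as Ryr2 and Kcnma1, were not measured. Numbers of higher and lower genes, here and for the lists, are therefore not comparable with each other. All 11 measured identity genes were past 1.5-fold higher, with medians of 3.94 and 3.92. Of 19 contractile and adhesion genes, 10 were past it higher and 2 lower (medians 2.35 and 2.54). Of 18 genes of calcium and potassium handling, 5 were higher and 8 lower (-0.80 and -0.32). Of 14 genes of cyclic nucleotide signalling, 4 were higher and 5 lower (-0.32 and -0.04).

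Matrix, TGF-beta and BMP, and Notch genes were divided as well, while immediate early genes past 1.5-fold were all higher. Over all genes, 8.57% were past 1.5-fold higher and 18.2% lower. Of 17 matrix genes, 2 were past 1.5-fold higher and 8 lower. The higher ones were the protease inhibitor Timp3 (log2 2.44 and 2.07) and the matrix protein Sparcl1 (1.27 and 1.35), and the lower ones included the laminin chains Lama2 (-4.53 and -2.78) and Lama4 (-2.26 and -2.34). Of 12 genes of the TGF-beta and BMP pathway, 6 were higher, among them the matricellular Ccn1 (3.06 and 2.58), and 2 lower. Of 6 Notch pathway genes, 1 was higher and 3 lower, and Notch3, a receptor of mural cells, had 262 and 384 CPM against 478 and 442 CPM in pericytes. Of 23 immediate early genes, which respond within minutes to stimulation, 10 were higher and 0 lower, with Nr4a1 the highest (1.88 and 1.45).

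The 12 genes highest beside pericytes outside the rule were Pln, Palld, Sorbs2, Sncg, Tpm2, Nexn, Lmod1, Map1b, Vim, Csrp1, Crip1 and Tinagl1. Palld (palladin), which crosslinks actin, had 839 and 635 CPM against 6.81 and 4.01 CPM in pericytes, log2 ratios of 6.88 and 7.23. Vim, the intermediate filament vimentin, had 3489 and 2826 against 110 and 109 CPM, ratios of 4.98 and 4.70. The 12 lowest were Abcc9, Nts, Ggt1, Chp2, Tmem45a, Oaf, Uchl1, Spp1, Vtn, Unc13c, Pla1a and Slc6a20a. All but Abcc9, Uchl1, Vtn and Slc6a20a, 8 genes, had at most 2 smooth muscle counts in either library and passed the count minimum through pericytes, so their order rests on the 0.5 counts added. Vtn (vitronectin), an adhesion protein, had 497 and 649 against 13490 and 11240 CPM, and the amino acid transporter Slc6a20a 42 and 46.3 against 954 and 790 CPM. Nts, the precursor of neurotensin, had 1 and 0 counts in smooth muscle. In Random-14d the upper limit of its 95% counting interval was a log2 ratio of -3.40.

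**Figure D3:**
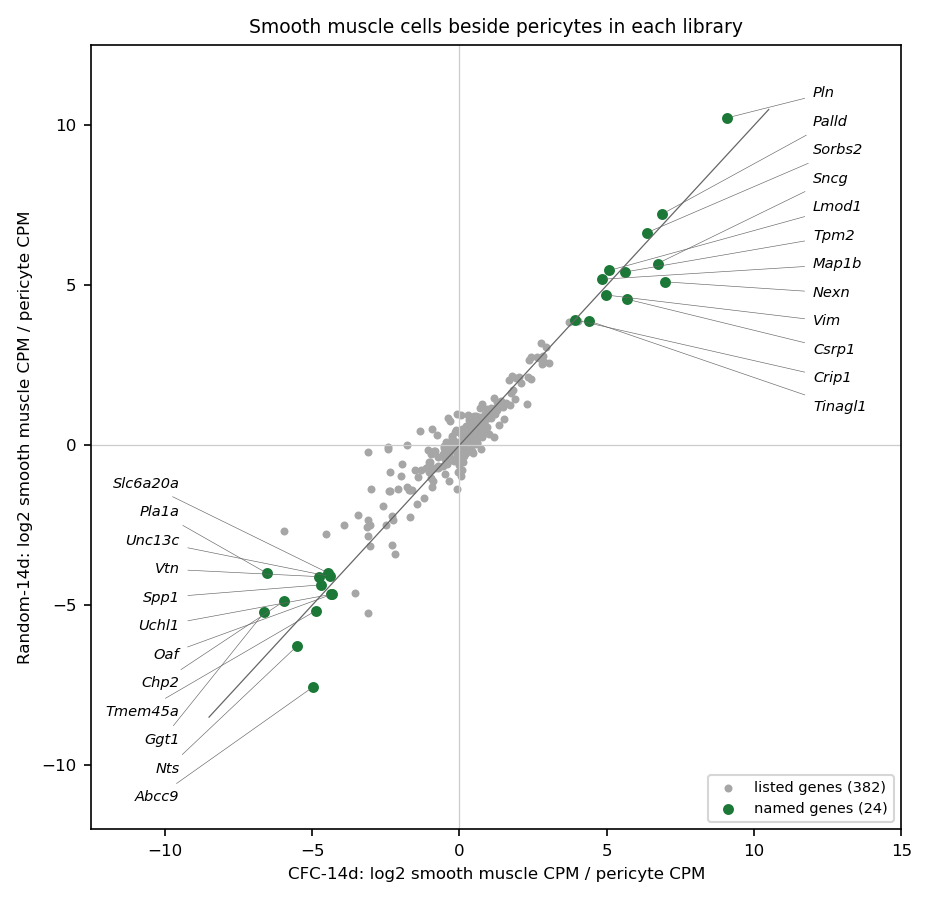
Log2 ratio of CPM in smooth muscle cells to CPM in pericytes, in CFC-14d (horizontal axis) and Random-14d (vertical axis), for genes of the lists (grey) and the 24 named genes (green); the diagonal marks equal ratios. Pln lies highest, at 9.10 and 10.24, against 3 and 2 pericyte counts (95% counting intervals 7.76 to 11.6 and 8.69 to 13.6); the named genes were chosen to have 1 sign in both libraries.

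Smooth muscle cells also differed among themselves. They were divided by the share of UMIs from the rule genes into an upper group, a lower group and the cells between; the upper and lower groups held 27 cells each in CFC-14d and 17 each in Random-14d. The genes given here were chosen after their values were seen. The groups are ranges of 1 score and not types: 26 and 19 cells lay within 1 percentage point of the upper limit and 11 and 16 of the lower. Vim had 5672 and 5267 CPM in the upper group and 566 and 526 CPM in the lower. Ppp1r14a, an inhibitor of myosin phosphatase, had 1841 and 2111 against 283 and 328 CPM. Ramp1 had 47 and 26 counts in the upper group (437 and 486 CPM) and 1 and 1 in the lower, log2 ratios of 4.23 (2.25 to 10.13) and 3.91 (1.86 to 9.83). Vim, Ramp1 and Ppp1r14a were thus higher in the upper group of both libraries.

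Pericyte and microglia genes ran the other way. Rgs5, a G protein regulator abundant in pericytes, had 251 and 262 CPM in the upper group and 1806 and 1796 CPM in the lower. Vtn had 18 and 2 counts in the upper group and 96 and 66 in the lower, log2 ratios of -3.14 (-3.99 to -2.44) and -4.96 (-8.35 to -3.36). Ndufa4l2, a mitochondrial protein found in pericytes, had 4 and 2 counts in the upper group and 22 and 18 in the lower, ratios of -3.08 (-5.21 to -1.66) and -3.12 (-6.55 to -1.34). The 10 microglia markers, of which 0 were at 0 in the cells of either library, summed to 1107 and 2708 CPM in the upper group and 12630 and 7139 CPM in the lower. The haemoglobin genes summed to 2743 and 5659 CPM in the upper group and 35140 and 269900 CPM in the lower. The choroid plexus markers summed to 18920 and 20230 CPM in the upper group and 72520 and 21150 CPM in the lower, so that they were higher in the lower group of CFC-14d and close in Random-14d. The median depth was 4006 and 3265 UMIs in the upper group and 2064 and 1845 in the lower.

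The pericyte genes were also high in the lower group without the cells in doubt. Leaving out cells that passed another gate or held over 5% haemoglobin UMIs kept 12 and 8 cells there and 26 and 14 in the upper group. Rgs5 then had 3396 and 4118 CPM in the lower group (68 and 46 counts) and 251 and 232 CPM in the upper, and Vtn 61 and 28 counts against 17 and 2.0. Pericytes had 3123 and 2789 CPM of Rgs5, so these lower cells were above the pericyte level and their label is less sure. Their Vtn, at 3047 and 2507 CPM, was under the 13490 and 11240 CPM of pericytes. Their Tpm2, at 2248 and 1970 CPM, was over the 135 and 139 CPM of pericytes. The microglia markers summed to 4345 and 4566 against 1140 and 2090 CPM. The part of other cells' RNA in these differences was not tested.

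The comparison of CFC-14d with Random-14d addresses which RNAs differed between conditioning and unpaired shocks. Of 670 genes, 472 (70.45%) had a higher CPM in CFC-14d, 56 (8.36%) by at least 1.5-fold, and 11 (1.64%) were at least 1.5-fold lower, 10% together. The median log2 ratio of all genes was 0.16. Ratios and counts below are to be read against that shift. The lower genes included the 4 measured haemoglobin genes, with a median of -3.25. Scaled by the median of ratios over genes, 23 higher and 21 lower genes were past 1.5-fold. Without the 7 cells of over 5% haemoglobin UMIs, 26 higher and 16 lower were past it, and the median of all genes was 0.03. Without the cells of under 1% of UMIs from the rule genes, 22 higher and 22 lower were past it, so higher genes did not outnumber lower ones under every alternative. Leaving out cells also changed which genes reached 100 counts. With no minimum count, 3077 were past it higher and 4126 lower, a tally set in part by the 0.5 counts added and the unequal totals. There a single count in Random-14d alone was past it lower, while a single count in CFC-14d alone was not past it higher.

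Identity and contractile genes lay near the median of all genes, with shares of higher genes close to the 70.45% of all genes. Of 12 identity genes, 9 (75%) were higher and 3 lower in CFC-14d, 0 of them past 1.5-fold, with a median of 0.14. Of 17 contractile and adhesion genes, 13 (76.5%) were higher and 4 lower, with a median of 0.20, and Csrp1 was past 1.5-fold. Of 6 genes of calcium and potassium handling, 2 were higher and 4 lower, with a median of -0.16. With class totals, all 8 measured genes of cyclic nucleotide signalling were lower, from -0.22 to -0.03 with a median of -0.14, and none passed 1.5-fold. The counting interval of Gucy1a1, the lowest, held 0: its ratio was -0.22 (95% counting interval -0.65 to 0.22).

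Chaperone, nuclear respiratory chain and ribosomal protein genes lay above the median of all genes. All 8 measured heat shock and chaperone genes were higher in CFC-14d, 3 of them past 1.5-fold, from 0.09 to 0.996 with a median of 0.46. The 3 were Hspa5, a chaperone of the endoplasmic reticulum, Hspe1, a mitochondrial one, and Hsp90aa1, a cytosolic one with 849 and 549 CPM. Of 62 nuclear genes of the respiratory chain 55 (88.7%) were higher (median 0.26), and of 77 ribosomal protein genes 71 (92.2%, median 0.26). Scaled by the median of ratios, these medians were 0.10 and 0.10. The respiratory chain list summed to 38300 and 32120 CPM in smooth muscle cells and to 62460 and 61550 CPM in choroid plexus epithelium. The chaperone and ribosomal lists were lower in choroid plexus epithelium than in smooth muscle cells. Choroid plexus markers, given below, were higher in CFC-14d smooth muscle cells in sum but not in the median cell. Their part in these ratios was not tested. The 7 measured mitochondrially encoded genes had a median of 0.12, under that of all genes. Immediate early genes were near the share of all genes, with 11 of 16 (68.8%) higher and a median of 0.22, and Fos, a component of AP-1, had 2544 and 2621 CPM.

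**Figure D4:**
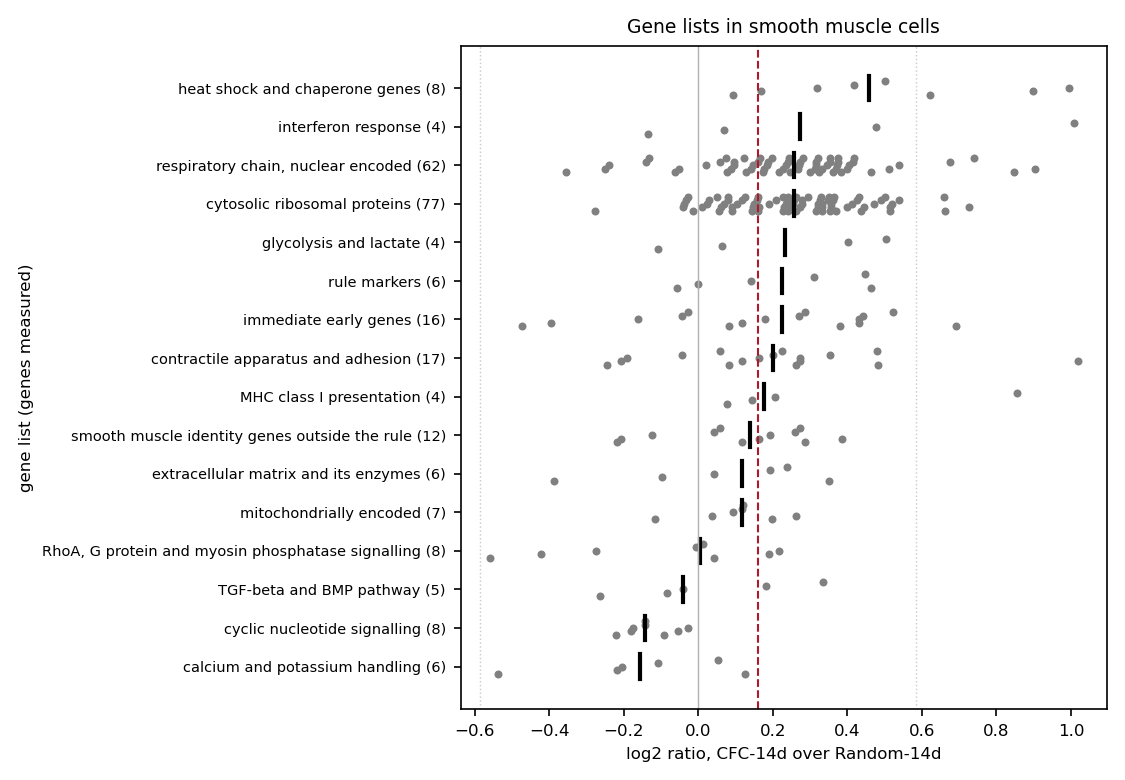
Log2 ratio of CFC-14d over Random-14d in smooth muscle cells (horizontal axis) for each measured gene (grey points) of the lists (vertical axis, with the number measured); black bars are list medians, the dashed line the median of all genes at 0.16 and the dotted lines 1.5-fold. Lists of other cell types' markers, haemoglobin and lists with under 4 measured genes are not drawn. Of those drawn, the chaperone list has the highest median, 0.46, and all points of the cyclic nucleotide list lie below 0.

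Single genes were named when past 1.5-fold with a counting interval that left out 0 and a level of at least 25% of that in the highest other type. The 12 highest of 37 were Actg1, Rbm8a, Csrp1, Bst2, Hspa5, Ptp4a3, Cox6b1, Hspe1, Sdhc, Mrfap1, Calr and Atp5mk. Actg1, a cytoplasmic actin, had 140 counts (452 CPM) in CFC-14d and 30 counts (198 CPM) in Random-14d, a log2 ratio of 1.17 (95% counting interval 0.61 to 1.81). Csrp1, a LIM protein of the actin cytoskeleton, had 392 counts (1265 CPM) in CFC-14d and 94 counts (622 CPM) in Random-14d, a ratio of 1.02 (95% counting interval 0.70 to 1.36). Hspa5 had 161 counts (520 CPM) in CFC-14d and 39 counts (258 CPM) in Random-14d, a ratio of 0.996 (95% counting interval 0.50 to 1.55). In pericytes of the same libraries the ratios were 0.58 (0.36 to 0.81) for Actg1, -0.08 (-0.74 to 0.55) for Csrp1 and 0.23 (0.11 to 0.36) for Hspa5.

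The other 9 had ratios from 0.85 to 1.03. Rbm8a, a part of the exon junction complex, had 81 counts (262 CPM) in CFC-14d and 19 counts (126 CPM) in Random-14d, and Bst2 (tetherin), an interferon-induced membrane protein, 271 and 132 CPM. Calr, a calcium-binding chaperone of the endoplasmic reticulum, had 352 and 192 CPM. Cox6b1 and Sdhc, subunits of respiratory complexes, had 884 and 470 CPM and 349 and 185 CPM, and Atp5mk, of the ATP synthase, 362 and 198 CPM. In pericytes the ratios were 0.53 for Calr, 0.39 for Atp5mk, 0.32 for Hspe1, 0.31 for Cox6b1 and 0.30 for Ptp4a3. They were 0.27 for Mrfap1, 0.09 for Rbm8a, 0.08 for Bst2 and -0.04 for Sdhc. Over the whole libraries Calr had a ratio of 0.51, Atp5mk 0.42 and the rest from -0.06 to 0.32. Among the other types, the levels of Cox6b1, Hspe1, Sdhc, Calr and Atp5mk were highest in choroid plexus epithelium. Atp5mk, Mrfap1, Sdhc and Calr were under 1.5-fold in 3, 2, 1 and 1 of 15 alternatives, with lowest ratios of 0.55, 0.42, 0.36 and 0.50.

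Lower genes that met the naming rule were Ogn, Ywhaz and Zbtb20. Ogn (osteoglycin), a small proteoglycan of the matrix, had 59 counts (190 CPM) in CFC-14d and 59 counts (390 CPM) in Random-14d, a ratio of -1.04 (95% counting interval -1.58 to -0.49). One Random-14d cell held 20.3% of its counts there. Ywhaz, a 14-3-3 adaptor, had 60 counts (194 CPM) in CFC-14d and 50 counts (331 CPM) in Random-14d, a ratio of -0.78 (95% counting interval -1.34 to -0.20). Zbtb20, a transcription repressor, had 116 counts (374 CPM) in CFC-14d and 96 counts (635 CPM) in Random-14d, a ratio of -0.76 (95% counting interval -1.17 to -0.36). All 3 stayed below 0 in the 15 alternatives of membership, scaling and added count that were run, but Zbtb20 was not past 1.5-fold without the cells that passed another gate (-0.40).

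Markers of other types also differed between the groups. The 8 choroid plexus markers summed to 34650 and 21320 CPM in smooth muscle cells, with medians over cells of 17370 and 19170 CPM, and to 360500 and 395900 CPM in choroid plexus epithelium. Microglia markers summed to 3854 and 4758 CPM and 8 pericyte markers outside the rule to 1795 and 2541 CPM. Their part in the ratios was not tested. Without the cells of under 1% of UMIs from the rule genes, the ratios were 1.10 for Actg1, 0.86 for Csrp1, 0.74 for Hspa5, -0.68 for Zbtb20 and -1.40 for Ogn. Without the 5% deepest cells, 5 and 3 cells with 13.9% and 15.4% of the UMIs, 26 higher and 15 lower genes were past 1.5-fold, of those that still had 100 counts.

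**Figure D5:**
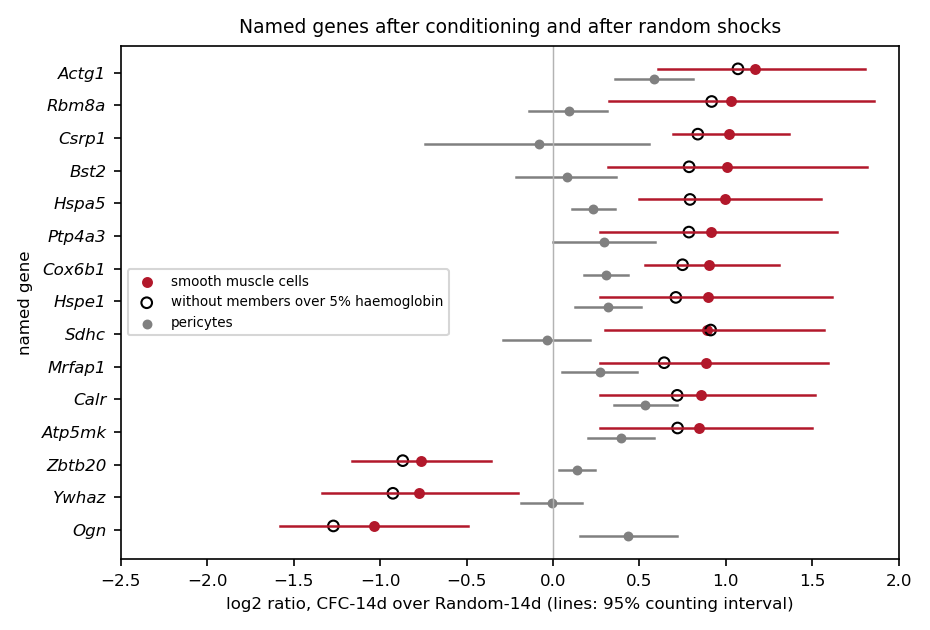
Log2 ratio of CFC-14d over Random-14d (horizontal axis) for the 15 named genes (vertical axis) in smooth muscle cells (red), in those without cells of over 5% haemoglobin UMIs (open circles) and in pericytes (grey); lines are 95% counting intervals. The 12 higher genes lie right of 0, and Zbtb20, Ywhaz and Ogn left of it, with and without those cells.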

How the data were processed

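The deposited files hold raw UMI counts per gene and barcode, 1 matrix per library, per the file headers written by Cell Ranger 8.0.1; Seurat 5.4.0 and GRCm39 (mm39) are named in the submitters' processing notes, and the release of the gene annotation was not stated in these sources. The deposited counts were used without change. Counts of smooth muscle cells and of other gated types were summed per library and scaled to the sum (CPM). Ratios are log2 of CPM with 0.5 counts added to each sum, with exact conditional binomial 95% intervals for counting error, for genes with at least 100 counts over both libraries. Library totals were 126937815 and 122920565 UMIs. Barcodes of several other gates were left out of those types.

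The members, gene lists and rules were chosen with earlier results of these data known. Named genes were up to 12 per direction: past 1.5-fold, interval without 0, at least 25% of the level in the highest other type, and no unnamed gene models, mitochondrial, ribosomal protein, haemoglobin or sex-linked genes. Beside pericytes they were the 12 highest and 12 lowest by the smaller ratio of the libraries. By level, genes of the identity, contractile, receptor, calcium and potassium, cyclic nucleotide and Notch lists with 100 counts could be named.

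No doublets were removed; an alternative left out the 7.97% and 7.90% of barcodes with the highest simulated-doublet score (5 and 2 smooth muscle cells). On simulated data for this comparison (625 genes, 200 changed 2-fold), 96.2% of changed and 2.23% of unchanged genes were past 1.5-fold. The simulated sums were Poisson draws without spread between cells or libraries. The 2.23% is therefore not a rate of false calls for the real data. Alternatives varied depth, membership, scaling, minimum and added count. Those without haemoglobin-rich cells and without cells under 1% of rule-gene UMIs were chosen after seeing the data. Software was Python 3.11.15, numpy 2.4.6, scipy 1.17.1, pandas 2.3.3, scikit-learn 1.9.0 and matplotlib 3.10.9.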

Additional observations from a re-analysis of the deposited data

Results flagged for a closer look

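Zbtb20 and Ogn had opposite signs in smooth muscle cells and pericytes of the same libraries, with counting intervals that left out 0 in both; the difference between the types was not tested, since each group had 1 library. Zbtb20 had a log2 ratio of CFC-14d over Random-14d of -0.76 (95% counting interval -1.17 to -0.36) in smooth muscle cells and 0.14 (0.04 to 0.24) in pericytes. Ogn had -1.04 (95% counting interval -1.58 to -0.49) in smooth muscle cells and 0.44 (0.16 to 0.72) in pericytes. Over the whole libraries the ratios were 0.15 for Zbtb20 and 0.13 for Ogn, so the pericyte ratio of Zbtb20 was near that of all barcodes. The largest Random-14d smooth muscle cell held 13.5% of the Zbtb20 counts and 20.3% of the Ogn counts there.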

How the results depend on the processing

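No paired analysis was possible because each group had 1 library, and none could be left out. All 15 named genes kept their direction in 15 alternatives, and 10 stayed past 1.5-fold in all of them; the exceptions were Atp5mk, Mrfap1, Sdhc, Calr and Zbtb20. The share of smooth muscle cells became 0.336% in CFC-14d with at least 1000 UMIs and 500 genes, 0.180% and 0.128% in CFC-14d and Random-14d with no exclusion UMI, 0.148% and 0.125% with no pericyte gene, and in CFC-14d 0.199% without cells that passed another gate and 0.196% without those under 1% of rule-gene UMIs. Genes past 1.5-fold higher numbered 29 with at least 4 rule genes, 32 with no exclusion UMI and 20 with no pericyte gene. Without cells under 1% they were 22 higher and 22 lower, without the deepest 26 higher, without haemoglobin-rich cells 26 higher, scaled by the median of ratios 23 higher and 21 lower, with totals free of haemoglobin and mitochondrial UMIs 27 higher and 19 lower, and with cells weighted equally 20 lower. A minimum of 50 counts gave 172 higher and 52 lower, 200 counts 16 higher and 7 lower and no minimum 3077 higher and 4126 lower. The number of genes measured differed between these minimums, so their counts are not comparable. With no minimum the tally also depends on the 0.5 counts added and the unequal totals. The respiratory chain median was 0.183 with 4 rule genes, 0.0601 with no exclusion UMI, 0.107 with no pericyte gene, 0.0298 without the deepest, 0.140 without haemoglobin-rich cells, 0.106 without those under 1%, 0.0966 by the median of ratios, 0.119 by reduced totals and 0.100 with equal weights. In the same order, the ribosomal median was 0.198, 0.179, 0.206, 0.139, 0.128, 0.154, 0.0962, 0.118 and 0.171, and 0.197 without cells that passed another gate, which gave 0.286 for identity and 0.370 for matrix genes. The cyclic nucleotide median was -0.364 with no exclusion UMI, -0.233 without the deepest, -0.283 without haemoglobin-rich cells, -0.304 by the median of ratios and -0.281 by reduced totals. The contractile median was 0.0551 with no exclusion UMI, 0.0401 without the deepest and 0.0403 by the median of ratios. The haemoglobin median was -2.48 with no pericyte gene, -1.38 without the deepest, -0.619 without haemoglobin-rich cells, -2.03 without those under 1% and -1.90 with equal weights. The mitochondrial median was -0.149 without cells under 1% and -0.199 with equal weights. The MHC class I median changed sign to -0.0075 without haemoglobin-rich cells and was 0.0149 by the median of ratios, 0.0371 by reduced totals and 0.0398 with equal weights. The cause of these changes was not tested. Both counts beside pericytes stayed within 1.5 times in all 11 alternatives run.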
